A study of Homo sapiens with 7 samples.

Results

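The 4 HOX gene clusters were examined for peaks of HOXB13 acetylated at lysine 13 (HOXB13-K13ac) in C4-2B cells. Members were chosen by position alone, as every peak sharing at least 1 bp with a window on hg19. These windows were HOXA at chr7:27130000-27250000, HOXB at chr17:46600000-46830000, HOXC at chr12:54330000-54452000 and HOXD at chr2:176955000-177057000. They hold the 38 HOX genes considered, which are 10 of HOXA, 10 of HOXB, 9 of HOXC and 9 of HOXD. The windows contained 62 of 41303 peaks of replicate 1, 52 of 45216 of replicate 2 and 10 of 18232 of replicate 3. After peaks of the 3 replicates that shared sequence were merged, the windows held 66 of 65675 regions.

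C4-2B is an established prostate cancer line that was derived from LNCaP and grows without androgen support. All 7 libraries came from C4-2B cells grown in DMEM with charcoal-stripped fetal bovine serum, from which stripping removes steroids, and no further treatment is named. Chromatin immunoprecipitation and sequencing gave 3 HOXB13-K13ac libraries, and 2 IgG precipitations and 2 inputs served as controls. The labels do not say whether replicates came from separate cultures, and no library from cells without HOXB13 was analysed here.

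HOX genes encode homeodomain transcription factors that give cells their position along the body axis. They lie in 4 clusters in which gene order follows the order of expression, from the low-numbered anterior genes to the posterior genes that end with paralog 13. HOXB13 stands apart from the rest of its cluster across a long interval with PRAC1 and PRAC2, and it is a lineage factor of the prostate and a partner of the androgen receptor. HOX clusters are well-known targets of Polycomb repression, and the paralogs HOXA13 and HOXD13 act in the developing urogenital tract.

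Promoter sequences from RefSeq, on the build GRCh38.p14, were found for 20 of the 38 genes (27 promoters, since HOXA3 and HOXA10 have several starts). HOXB13 and HOXB9 are among the 18 without an entry. The 250 bases before each start were searched on both strands for letters bound by HOX proteins (CAATAAA, CTCGTAAA and CTCATAAA), by forkhead factors (TGTTTAC) and by steroid receptors (AGAACA). CTCGTAAA and CTCATAAA differ by a base, and all HOX-type motifs share their last letters. The peaks are on hg19, so no promoter was placed on a peak by coordinates. Of the sequences shown, HOXB1 marks the end of HOXB that lacked peaks of replicates 1 and 2. HOXA13 and HOXD13 are the paralogs of HOXB13 in the cluster with 20 merged regions and in that with 5. HOXC4 and HOXC5 share a start in the table, and theirs was the only promoter of these genes with both a HOX-type and a forkhead match. Each is given 5′ to 3′ on the strand of its gene, with matches to any of the 5 motifs in capitals. Their positions are chr17:48531012-48531261 (minus strand), chr7:27200092-27200341 (minus), chr2:176092471-176092720 (plus) and chr12:54016638-54016887 (plus).
HOXB1: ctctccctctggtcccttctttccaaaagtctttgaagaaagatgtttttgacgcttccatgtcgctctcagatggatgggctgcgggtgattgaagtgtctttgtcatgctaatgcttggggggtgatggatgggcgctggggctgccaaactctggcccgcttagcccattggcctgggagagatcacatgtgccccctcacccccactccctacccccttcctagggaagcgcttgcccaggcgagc
HOXA13: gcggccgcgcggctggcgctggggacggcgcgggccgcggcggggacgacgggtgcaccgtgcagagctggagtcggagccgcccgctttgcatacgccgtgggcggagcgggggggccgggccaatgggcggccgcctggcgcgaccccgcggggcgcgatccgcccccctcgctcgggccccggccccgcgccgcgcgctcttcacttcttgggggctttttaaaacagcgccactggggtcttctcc
HOXD13: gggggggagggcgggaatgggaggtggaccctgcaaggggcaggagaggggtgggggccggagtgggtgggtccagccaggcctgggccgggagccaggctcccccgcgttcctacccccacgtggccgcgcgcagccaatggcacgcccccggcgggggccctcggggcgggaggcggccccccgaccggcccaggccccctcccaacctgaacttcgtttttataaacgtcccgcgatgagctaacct
HOXC4 and HOXC5: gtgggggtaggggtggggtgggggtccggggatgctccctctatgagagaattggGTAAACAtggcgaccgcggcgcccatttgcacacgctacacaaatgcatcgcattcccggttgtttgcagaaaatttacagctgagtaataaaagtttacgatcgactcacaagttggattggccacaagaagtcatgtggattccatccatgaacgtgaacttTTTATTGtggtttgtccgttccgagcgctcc

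The HOXC4 and HOXC5 promoter held TTTATTG, the reverse complement of CAATAAA, and GTAAACA, the reverse complement of TGTTTAC. Of the HOX-type motifs, CAATAAA was found in 4 of the 27 promoters (of HOXA3, HOXC4 and HOXC5), compared with 3.66% of all 35116 promoters. HOXA3 has several promoters in the table, and the sequence shared by HOXC4 and HOXC5 is counted for each. CTCATAAA was found in 1 of the 27 promoters, of HOXA3 (0.795% of all promoters), and CTCGTAAA in 0 (0.117% of all). AGAACA matched 3 of the 27, of HOXA3, HOXA9 and HOXA11 (12.4% of all), and TGTTTAC 2 of the 27, of HOXC4 and HOXC5 (2.98% of all). A match describes letters and does not show binding. The promoters of HOXA13 and HOXD13 were rich in G and C (78.0% and 74.0%), compared with 57.2% for HOXB1. The median was 58.8% over the 27 HOX promoters and 58.0% over all promoters. They held 40 and 21 CpG dinucleotides, compared with 7 for HOXB1.

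HOXB13 itself lay under a single broad peak in both replicates 1 and 2. The gene occupies chr17:46802127-46806111 and is read towards lower coordinates, so it starts at 46806111. In replicate 1 a peak of 5431 bp (chr17:46802068-46807498) covered the whole gene, with a fold enrichment of 11.28. Fold enrichment is the authors' ratio of signal at the peak summit to the local background of the control. In replicate 2 a peak of 5844 bp (chr17:46802189-46808032) covered 98.4% of it, with a fold enrichment of 31.27 over input. Replicate 3 had no peak on the gene or within the 10 kb on either side of it. Both broad peaks also ran past the start of the gene, by 1387 bp in replicate 1 and 1921 bp in replicate 2.

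These peaks were among the widest in their lists. Only 21 of 41303 replicate 1 peaks (0.0508%) and 46 of 45216 replicate 2 peaks (0.102%), each count including the HOXB13 peak, were at least as wide. By fold enrichment, 9.44% of replicate 1 peaks and 2.01% of replicate 2 peaks were at least as high, so width set HOXB13 apart more than height did. The summit was placed 693 bp before the start of the gene in replicate 1 and 227 bp inside it in replicate 2. The −log10 q was 83.5 and 78.6 for these peaks. In a further list called against input, whose label matches no library, 4 separate peaks covered 88.6% of the gene. The strongest of these had a fold enrichment of 23.24 and the same summit base as replicate 2.

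**Figure D1:**
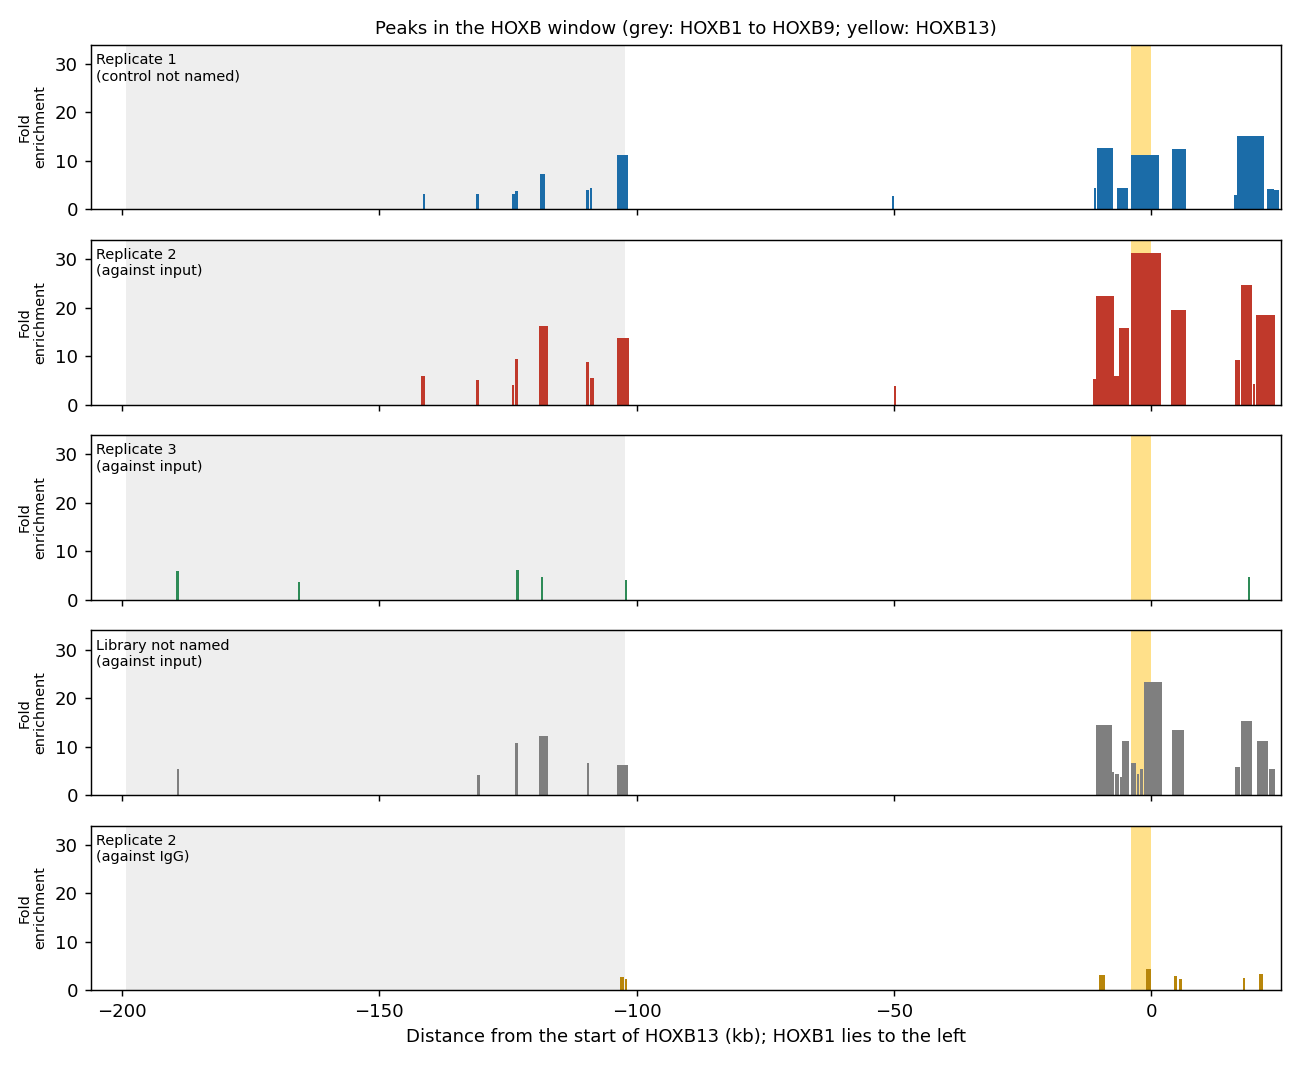
Peaks in the HOXB window by list, with distance from the start of HOXB13 in kb on the horizontal axis and the authors' fold enrichment as bar height. Each bar spans a peak, and the yellow band is HOXB13. In replicates 1 and 2 and in the list of the library not named, the highest bars stand at and around HOXB13, up to 31.27 in replicate 2, and the left of the grey HOXB1 to HOXB9 block is empty in replicates 1 and 2.

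The chromatin around HOXB13 carried a run of mostly wide sites. A site is replicated here when at least 2 of the 3 libraries have a peak in the merged region. Where a library has several peaks in a region, the highest fold enrichment is given. The HOXB13 end was taken from the midpoint between the HOXB9 to HOXB1 block and HOXB13 to the end of the window, a length of 77.0 kb. It held 6 replicated sites, all between 46794838 and 46830949, and these covered 24.4 kb (67.6%) of that 36.1 kb. That span is bounded by the sites themselves, and the covered length joins the peaks of all replicates. All 6 rested on replicates 1 and 2, and 1 also had a peak of replicate 3. The last site runs 949 bp past the window, whose edge cuts the run. HOXB13 with 30 kb on both sides, a stretch that ends at 46836111, held 9 replicated sites.

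Going from the HOXB9 side, the first of the 6 was a narrow site of 592 bp (chr17:46794838-46795429) with fold enrichments of 4.32 in replicate 1 and 5.35 in replicate 2. Next to it lay a site of 3365 bp (chr17:46795451-46798815) with 12.65 and 22.39. Close to HOXB13 came a site of 2899 bp (chr17:46798906-46801804) with 4.33 in replicate 1 and 15.71 in replicate 2. That was the most uneven of the 40 sites that replicates 1 and 2 shared in the windows, with a ratio of 3.63. PRAC1 and PRAC2, small genes named for their expression in prostate and bowel, lie between HOXB9 and HOXB13 in the RefSeq gene order.

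Upstream of HOXB13 there were a site of 2888 bp (chr17:46810015-46812902) with fold enrichments of 12.41 and 19.61, and a site of 8696 bp (chr17:46822254-46830949) with 15.09 and 24.72. The latter was the widest site of the windows and the one with a replicate 3 peak, whose fold enrichment was 4.80. In replicate 1 it held a peak of 5243 bp, with 25 peaks of that list (0.0605%) at least as wide. Of the 6 sites, 5 were wider than 2 kb, compared with 12.2% of all replicated sites.

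The interval between this run and HOXB9 was nearly empty. Between the HOXB9 site ending at 46704576 and the run starting at 46794838, replicate 1 had a peak of 232 bp (fold enrichment 2.81) and replicate 2 a peak of 235 bp (3.86). They lay side by side without sharing a base, and replicate 3 had none there. That stretch is only a part of the 98.3 kb that separate HOXB13 from the other HOXB genes. The sites of 592, 3365 and 2899 bp next to HOXB13 also lie within these 98.3 kb. Peaks of replicates 1 and 2 covered 6.78% and 7.76% of the whole 98.3 kb.

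The block of HOXB1 to HOXB9 (chr17:46606807-46703835) had smaller and weaker sites, and these lay on the side of HOXB9. All 8 of its replicated sites lay between 46664303 and 46704576. The first peak of replicate 1 lay 57.8 kb and that of replicate 2 57.5 kb from the block's HOXB1 end. HOXB1, the most anterior gene of the cluster and a hindbrain patterning factor, thus had no peak of these replicates. Replicate 3 had a peak 9.89 kb from that end (chr17:46616697-46617140, fold enrichment 5.87), where the list of the library not named also had a peak (5.38), and another at chr17:46640374-46640680 (3.60).

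Ranked by the mean log2 fold enrichment of replicates 1 and 2, the highest of these 8 sites spanned the HOXB9 end of the block (chr17:46702260-46704576). There the 3 replicates had fold enrichments of 11.15, 13.77 and 4.00. HOXB9 is a posterior gene active in the trunk. Another site, chr17:46687139-46688837, had values of 7.23, 16.14 and 4.79 in the same order, and chr17:46682469-46683065 had 3.78, 9.43 and 6.19. These 3 were the sites of the block present in all 3 libraries. The other 5 stayed between 3.06 and 4.32 in replicate 1, and between 3.94 and 8.84 in replicate 2.

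HOXA held 20 merged regions, of which 12 were replicated. Windows were split into sides at their coordinate midpoint, not at a gene boundary. Of the 12 replicated sites, 9 lay on the side nearer HOXA13. That side was covered by peaks for 17.5% in replicate 1 and 13.7% in replicate 2, compared with 5.39% and 5.08% of the other side. HOXA9 and HOXA10 have roles in blood progenitors, and HOXA11 and HOXA13 pattern limb and urogenital tract. The 5 HOXA sites ranked highest by the same mean had ratios of replicate 2 to replicate 1 between 0.943 and 1.27. The first, chr7:27211579-27214884, was 3306 bp wide with fold enrichments of 14.87 in replicate 1 and 15.92 in replicate 2. The site chr7:27200000-27201066 had 13.19 and 15.64, and chr7:27223397-27224669 had 13.19 and 12.44. The last 2 were chr7:27189636-27190643, with 9.83 and 12.51, and chr7:27169578-27170524, with 10.42 and 10.01.

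No HOXA region was present in all 3 libraries. The lone replicate 3 peak of the window (fold enrichment 4.94) shared 1 bp with a weak replicate 1 peak (3.30) at chr7:27241834-27242342. From 27238879 to the end of the window, replicate 1 had a group of 6 weak peaks, with fold enrichments between 2.31 and 4.26. In the same stretch replicate 2 had only a peak across the window's edge (3.35), which counts as replicated through a replicate 1 peak (2.98) just outside the window.

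HOXC had 23 merged regions, of which 13 were replicated, and here both sides of the window were covered. In replicate 1 the side nearer HOXC13 was covered for 14.5% and the other side for 14.8%, and in replicate 2 for 10.5% and 17.2%. Of the named sites, 3 exceeded a fold enrichment of 20 in replicate 2. The site chr12:54370939-54372938 had fold enrichments of 13.85 in replicate 1 and 21.04 in replicate 2, and chr12:54426601-54429626 had 13.11 and 22.19. A site of 976 bp, chr12:54409541-54410516, had 8.61 and 23.68, the highest replicate 2 value outside the HOXB13 end. The site chr12:54332528-54334088 had 12.21 and 12.51.

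Replicate 3 joined at 2 HOXC sites, both on the side of the window away from HOXC13. At chr12:54392970-54395088 the fold enrichments were 11.36, 14.03 and 5.46 in replicates 1, 2 and 3. At chr12:54410567-54412659 they were 5.90, 16.28 and 6.14. In gene order HOXC4, HOXC5 and HOXC6 lie at the end away from HOXC13, which is known for its part in hair and nails.

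HOXD had the fewest merged regions of the 4 clusters. It had 5 merged regions and 2 replicated sites, both on the side of HOXD13. The 2 sites amount to 1.96 per 100 kb (exact 95% Poisson interval 0.2375 to 7.083). That interval includes the 0.902 per 100 kb of the genome, so HOXD was not shown to differ from it. The site chr2:176962077-176962518 had fold enrichments of 5.34 in replicate 1 and 8.53 in replicate 2, and chr2:176957344-176958487 had 5.64 and 4.87. The remaining 3 regions were each seen in 1 library, with fold enrichments of 5.19 and 7.53 in replicate 2 and 4.32 in replicate 3. The 5 highest-ranked sites were to be named in each window, but HOXD had only these 2.

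**Figure D2:**
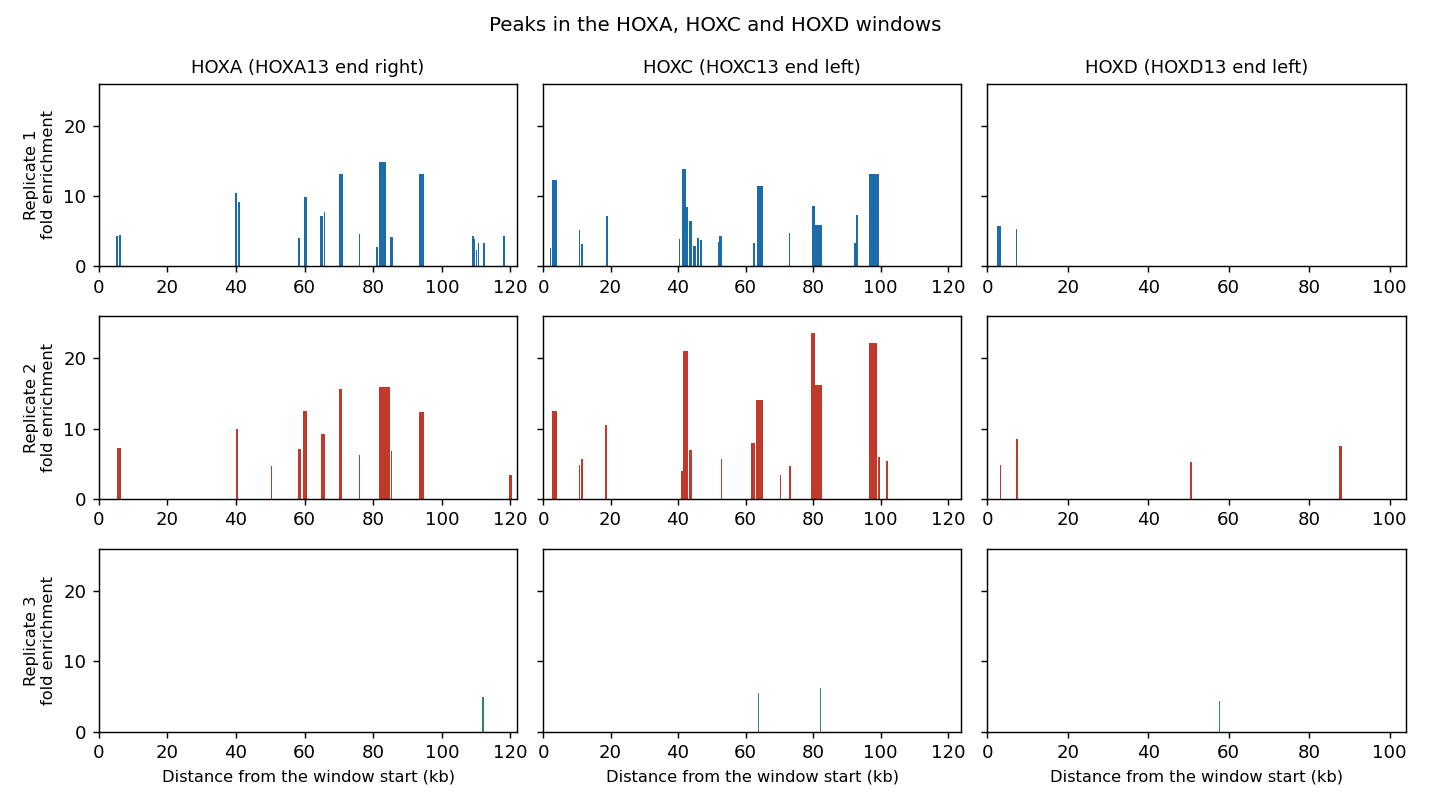
Peaks in the HOXA, HOXC and HOXD windows (columns) for replicates 1, 2 and 3 (rows), with distance from the window start in kb and the authors' fold enrichment as bar height. HOXA and HOXC carry bars up to 15.92 and 23.68 in replicate 2, while no HOXD bar exceeds 8.53 and replicate 3 has 1, 2 and 1 bars.

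To compare the clusters, the share of each window covered by peaks was taken in each library. HOXA was covered for 11.5%, 9.38% and 0.198% in replicates 1, 2 and 3, and HOXB for 11.9%, 13.2% and 0.798%. HOXC was covered for 14.6%, 13.8% and 0.507%, and HOXD for 1.45%, 1.84% and 0.424%. In replicates 1 and 2 the other clusters thus all exceeded HOXD. Over the span of all chromosomes from first to last peak, the lists covered 0.981%, 1.27% and 0.158%.

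No difference between clusters passed a test, and with 3 libraries none could. HOXC exceeded HOXD by 8.43 ± 7.25 percentage points (mean ± SD, n = 3) and HOXB exceeded HOXD by 7.40 ± 6.10, both in 3 of 3 libraries. The two-sided exact permutation test over libraries gave p = 0.25 for each, the smallest p that 3 libraries can give, and 0.438 after Benjamini-Hochberg adjustment over 7 contrasts. HOXA exceeded HOXD by 5.78 ± 5.34, in 2 of 3 libraries (exact permutation p = 0.5, n = 3). HOXA minus HOXB was -1.62 ± 1.94 and HOXA minus HOXC -2.65 ± 2.13, both below 0 in all 3 libraries (exact permutation p = 0.25, n = 3, adjusted 0.438). HOXB minus HOXC was -1.03 ± 1.58 (exact permutation p = 0.5, n = 3). Counted as peaks per 100 kb, HOXA minus HOXB was 2.94 ± 5.41 (SD, n = 3, exact permutation p = 0.75). In replicate 3 HOXB was the higher, with 2.61 compared with 0.833.

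The HOXB13 end and the rest of HOXB differed in opposite directions between libraries. The HOXB13 end was covered for 27.8% in replicate 1 and 29.6% in replicate 2, compared with 3.84% and 5.03% of the rest of the window. In replicate 3 the HOXB13 end was covered for 0.376% and the rest for 1.01%. The mean difference was 15.95 ± 14.4 percentage points (SD, n = 3, exact permutation p = 0.5, adjusted 0.5). Without replicate 3 it was 24.2 ± 0.411 (SD, n = 2). Replicates 2 and 3 carry the same library series number (3047) and replicate 1 another (2898), so series 2898 holds 1 HOXB13-K13ac library and the split between replicates 2 and 3 lies within a series. In the list of the library not named the values were 26.1% and 3.86%. That list touched 33 of the 41 replicated sites in the windows, compared with 86.9% of all replicated sites.

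**Figure D3:**
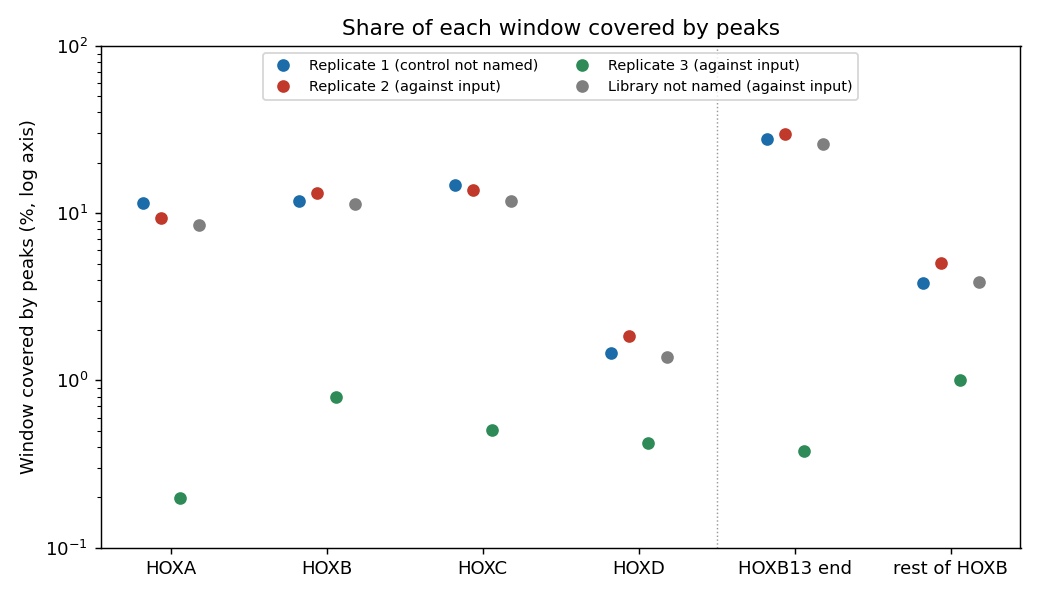
Share of each window covered by peaks (percent, log axis), with a point for each list, for the 4 clusters and, right of the dotted line, for the HOXB13 end and the rest of HOXB. Replicates 1 and 2 stand between 9.38% and 14.6% at HOXA, HOXB and HOXC and below 2% at HOXD, and replicate 3 is the lowest of the 3 replicates in every window.

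Of the 66 merged regions of the windows, 41 (62.1%, exact 95% binomial interval 49.3 to 73.8) were replicated, compared with 41.2% over the genome. The interval covers counting error only, and neighbouring regions are not independent. By cluster this was 12 of 20 in HOXA, 14 of 18 in HOXB, 13 of 23 in HOXC and 2 of 5 in HOXD. Of the 41, 6 were present in all 3 libraries (17.0% of all replicated sites), which were 4 in HOXB and 2 in HOXC. Replicated sites numbered 7.14 per 100 kb over the windows (exact 95% Poisson interval 5.13 to 9.69) and 0.902 per 100 kb over the genome.

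Seen from the single lists, 46 of 62 replicate 1 peaks in the windows were shared with another replicate (77.3% in the whole list). This held for 46 of 52 replicate 2 peaks (63.2% in the whole list) and 7 of 10 replicate 3 peaks (30.8%). At least 5 in −log10 q was the value of 51 of the 62 replicate 1 peaks (80.7% in the whole list), 40 of the 52 of replicate 2 (67.2%) and none of the 10 of replicate 3 (6.28%). Peaks wider than 2 kb numbered 8 in replicate 1 (2.86% in the whole list), 10 in replicate 2 (5.62%) and 0 in replicate 3 (0.0%). Of these, 5 of the 8 and 5 of the 10 lay in the HOXB13 end.

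Fold enrichment in replicate 2 relative to replicate 1 was lower at HOXA than in the list as a whole. The median ratio of replicate 2 to replicate 1 was 1.19 over the 11 shared HOXA sites, ranging from 0.943 to 1.74. It was 1.71 over 14 HOXB sites (1.23 to 3.63), 1.47 over 13 HOXC sites (0.944 to 2.76) and 1.23 over 2 HOXD sites. Over all 26760 sites shared by these replicates the median was 1.65 (interquartile range 1.25 to 2.16), and over those on chromosome 7 it was 1.66. Replicate 2 was lower than replicate 1 at 5 of the 40 shared sites in the windows, compared with 11.7% of all shared sites. The sites come from the same 2 libraries and it is not known which control replicate 1 was called against, so the difference was not tested.

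**Figure D4:**
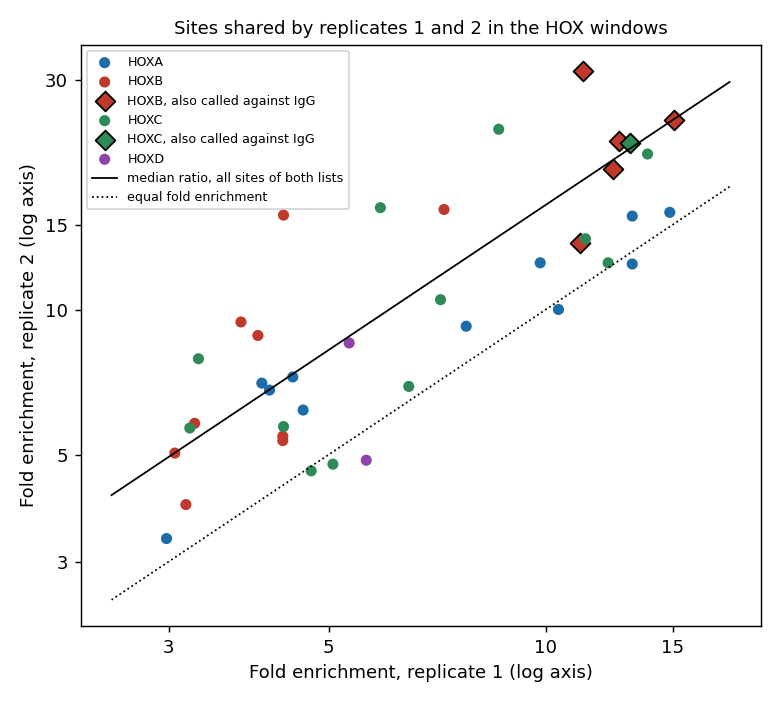
Fold enrichment in replicate 1 (horizontal) against replicate 2 (vertical), both on log axes, for the 40 HOX sites of both lists, coloured by cluster. The solid line is the median ratio of 1.65 over all shared sites and the dotted line marks equal values. The 4 HOXA points above 12 in replicate 2 lie below the solid line, the HOXB13 site at 11.28 and 31.27 lies above it, and diamonds mark the 6 sites also called against IgG.

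An IgG precipitation measures what is pulled down without a specific antibody, and replicate 2 was also called against it. In that list the windows held 11 of 7506 peaks, 9 in HOXB and 2 in HOXC. They touched 6 of the 41 replicated sites (14.6%, exact 95% interval 5.57 to 29.2), compared with 23.2% of all replicated sites. Of the 6, 4 were among the 6 sites of the HOXB13 end, 1 was the site at HOXB9 and 1 the HOXC site chr12:54426601-54429626. In replicate 2, median enrichment over input was 22.3 at these 6 sites and 8.22 at the other 35. HOXA had 0 of 12 sites called against IgG, which allows a share of up to 25.0% by the limit of 3 counts and 26.5% by the exact 95% interval.

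The peak with the highest enrichment over IgG in the windows lay inside HOXB13. It covered chr17:46805062-46806048, ending 63 bp short of the gene's start, at 4.39 times IgG and 1.92 in −log10 q. It was the only 1 of the 11 with a q of 0.05 or less, which 21.5% of that whole list reached. At this threshold 1 of 41 replicated sites was called, compared with 5.55% of all replicated sites. The other 10 peaks had fold enrichments over IgG from 2.24 to 3.64. The list of replicate 3 against IgG held 1 peak in all, outside the windows, and so gives no information on them.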

How the data were processed

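Peaks of HOXB13-K13ac ChIP-seq in C4-2B cells were taken from 6 lists deposited by the authors. The submitters' processing notes name MACS2, Bowtie2, BWA and CASAVA 1.4, and the builds hg19 and GRCh37. The peak threshold and any filter are not given in the sources. In the deposited lists each peak has a fold enrichment, a ratio to the control, and a −log10 p and −log10 q. Peak lists carry no read totals, so sequencing depth is unknown.

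Lists were tied to libraries by the spelling of the labels, which for replicates 1 and 3 differs by a punctuation mark. Replicate 1 is of library series 2898, and replicates 2 and 3 are of 3047. The list whose suffix matches no library was kept out of the replicate comparisons.

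Peaks were merged when they shared 1 bp, with Python 3.11.15, NumPy 2.4.6 and pandas 2.3.3, and intervals were computed with SciPy 1.17.1. The code was tested on simulated lists of 3000 sites and recovered 4 of 4 quantities. Coverage was compared by exact sign-flip permutation over the 3 libraries. Gene order within clusters came from RefSeq on GRCh38.p14, with no coordinates carried over. Sites named were those of all 3 libraries, the 5 per window with the highest mean log2 fold enrichment in replicates 1 and 2 (computed here from the deposited ratios), and those within 10 kb of HOXB13. No annotation of hg19 was used, so sites other than those at HOXB13 and at the ends of the HOXB1 to HOXB9 block were not assigned to genes. The members and lists were chosen with earlier results of these data known. The sides of the windows and the promoters shown were chosen after values were seen.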

Additional observations from a re-analysis of the deposited data

Results flagged for a closer look

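The list whose label matches no library held 53 of its 36205 peaks (0.146%) in the 4 HOX windows, and it was singled out because the replicate comparisons do not use it. The share was 0.150% in replicate 1 and 0.115% in replicate 2. With no control list for it, the count was not tested. By cluster it had 14 peaks in HOXA, 20 in HOXB, 16 in HOXC and 3 in HOXD. It touched 33 of the 41 replicated sites, compared with 86.9% of all replicated sites. Of its HOXD peaks, 2 lay on replicate 2 peaks that no other replicate had.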

How the results depend on the processing

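Of 125 alternative values, 97 kept their direction or stayed within 1.5 times of the value reported, or within its interval. Sites of the HOXB13 end stayed at 5 or 6 with a share of 0.5 of both widths, a −log10 q of at least 5, a q of 0.05 or less, the unnamed library's list for replicate 3 and the gene with 10 kb on both sides. Requiring summits within 100 bp left 22 sites in the windows (41 reported), namely 5 in HOXA, 8 in HOXB, 8 in HOXC, 1 in HOXD and 3 in the HOXB13 end. Leaving out each replicate in turn gave 6 to 40 sites in the 4 windows, 0 to 11 in HOXA, 4 to 14 in HOXB, 2 to 13 in HOXC, 0 to 2 in HOXD and 1 to 6 in the HOXB13 end. The low values came without replicate 1 (6 in all) or replicate 2 (7 in all), when every site must include replicate 3. HOXD had 1 site with a share of 0.5 of both widths, 1 at a −log10 q of at least 5, 4 with the unnamed library's list for replicate 3 and 0 with windows trimmed by 10 kb. Covered share reversed between HOXB and HOXC (2.49 percentage points, HOXB higher) when windows were extended by 50 kb. HOXA minus HOXB was 2.94 ± 5.41 (SD, n = 3) when counted as peaks per 100 kb. The cause of either change was not tested. Windows extended by 50 kb or trimmed by 10 kb were not run for the HOXB13 end. The share of sites called against IgG (14.6%) was 2.44% when IgG peaks needed q at or under 0.05. It was 0.0% with a share of 0.5 of both widths, a value that the widths fixed in advance. The 6 sites called against IgG were at least 2317 bp wide, and the IgG peaks in the windows at most 1103 bp. The share was 33.3% (2 of 6) for sites of all 3 libraries. Without replicate 1 it was 33.3% (2 of 6), and without replicate 3 it was 15.0% (6 of 40). Leaving out replicate 2 was not run for this share. The contrasts between clusters were paired within each library. Across antibody groups, which share replicate numbers, no paired analysis was possible because the IgG and input libraries have no peak list or other values of their own here. Unknown depth limits every count of peaks.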

Other observations

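Summits in the HOX windows were compared with those of the list that matches no library, within 10 bp. Of the 52 replicate 2 peaks, 11 had a summit of that list (15.3% in the whole replicate 2 list). This held for 5 of the 62 replicate 1 peaks (6.93% in its whole list) and 1 of the 10 replicate 3 peaks (4.602%). Of the 62 replicate 1 peaks, 2 had a summit of replicate 2 (5.58% in the whole list). At HOXB13 the summits of replicate 2 against input, replicate 2 against IgG and the unnamed library's list fell on the same base, 46805884. The replicate 2 lists are calls of the same library and so are not independent. The summit of replicate 1 lay elsewhere, at 46806804.

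At a fold enrichment over input between 9 and 16 in replicate 2, a range chosen after values were seen, 0 of 6 HOXA sites, 1 of 3 HOXB sites and 0 of 3 HOXC sites were called against IgG, compared with 24.5% of 8353 sites over the genome.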
